A study of Mus musculus with 12 samples.

Results

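The mRNA expression of 10 genes that move calcium in heart muscle cells was examined in mouse hearts: *Atp2a2*, *Pln*, *Sln*, *Ryr2*, *Casq2*, *Trdn*, *Jph2*, *Cacna1c*, *Cacnb2* and *Slc8a1*. They were chosen by name, as genes of the sarcoplasmic reticulum and of calcium entry and exit, from the 19308 genes with counts, and all 10 were found. Each was counted in 12 hearts, and 9 of them passed the filter on low counts. *Sln* did not pass and is described by its counts only.

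The hearts came from male C57BL/6 mice, 3 in each of 4 groups. WT mice carried intact *Fabp3*, and F3-KO mice carried a global *Fabp3* knockout made with CRISPR-Cas9. The knockout was thus not limited to heart muscle. At 8 weeks of age mice of both genotypes had either transverse aortic constriction (TAC) or a sham operation without constriction. TAC is a ligature around the aortic arch that makes the left ventricle pump against raised pressure. Hearts were collected for RNA 1 week later, and the paper does not state whether the atria were included. The study asked how loss of FABP3, a fatty acid binding protein, alters the heart under pressure overload, and the comparisons here are TAC against sham in each genotype and F3-KO against WT after each operation.

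At each heartbeat calcium enters the muscle cell through L-type channels of the sarcolemma and opens ryanodine receptors, which release far more calcium from the sarcoplasmic reticulum. Junctional proteins hold both membranes together, and calsequestrin binds calcium inside the store. The muscle relaxes when the SERCA pump returns calcium to the store, under restraint by small inhibitory peptides, and when the sodium-calcium exchanger expels the rest. A lower ratio of SERCA pump to exchanger is a known trait of the failing heart.

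Libraries held 10424334 to 14372011 estimated counts, and 3 counts were worth 0.209 to 0.288 CPM (counts scaled to a common library size). *Fabp3* itself was 2117 to 3064 CPM in the 6 WT hearts and 1002 to 1143 CPM in the 6 F3-KO hearts, so the libraries followed their genotype labels although transcript was still counted. The log2 fold change was -1.21 after sham (edgeR adjusted p = 0.00784) and -1.49 after TAC (edgeR adjusted p = 0.00146). The hearts expressed the 7 listed cardiomyocyte markers at a summed 51651 to 91192 CPM and the 7 skeletal muscle markers at 1.90 to 6.40 CPM. In F3-KO TAC hearts the cardiomyocyte sum was 51651 to 66087 CPM, below the 74189 to 84924 CPM of F3-KO sham hearts, and the sum of 7 fibroblast markers was 1467 to 7510 CPM against 973.8 to 1339 CPM. In WT hearts the fibroblast sum was 1296 to 3264 CPM after TAC and 702.6 to 1556 CPM after sham, and the cardiomyocyte sums of the groups overlapped (65746 to 91192 CPM against 54317 to 73934 CPM). In RNA of heart tissue, fewer muscle cells and less of a transcript per muscle cell cannot be told apart.

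Per kilobase of exon, the genes spanned a wide range in WT sham hearts. *Pln* was highest at 3368 ± 261 CPM per kb (SD, n = 3), followed by *Atp2a2* at 2639 ± 740 CPM per kb, and these 2 ranges overlapped. *Casq2* (346 ± 86.9 CPM per kb) and *Jph2* (149 ± 43.1 CPM per kb) came next, each with a range apart from its neighbors in this order. *Ryr2* (69.6 ± 27.6 CPM per kb) and *Trdn* (59.1 ± 9.17 CPM per kb) overlapped, as did *Slc8a1*, *Cacna1c* and *Cacnb2*, at 25.5 ± 6.12, 25.0 ± 5.19 and 20.4 ± 2.07 CPM per kb. *Sln* was last at 0.0464 CPM per kb. The first 6 places and the last were the same in all 4 groups, and only the order of the 3 sarcolemmal genes differed, in F3-KO sham hearts. The values between replicates varied most in WT hearts. The coefficient of variation had a median over the 9 genes of 24.0% in WT sham and 24.4% in WT TAC hearts, against 7.26% in F3-KO sham and 17.0% in F3-KO TAC hearts.

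Tested gene by gene with edgeR's quasi-likelihood model over 14095 genes, none of the 9 genes passed a Benjamini-Hochberg adjusted p of 0.05 in any of 7 contrasts. For TAC against sham in WT, edgeR called 0 of 9 (0% of all genes tested), 0 at an unadjusted p under 0.05 (6.28% of all genes), and DESeq2 (0.164% of all genes) and limma called 0. For TAC against sham in F3-KO, 0 of 9 were called (0% of all genes), 2 had an unadjusted p under 0.05 (17.1% of all genes, 6.47% with a lower value), and DESeq2 (2.98% of all genes) and limma called 0. Both were lower after TAC. For the mean TAC effect of both genotypes, edgeR called 0 of 9 (0.078% of all genes) and 3 had an unadjusted p under 0.05 (17.8%), while DESeq2 called 1, *Atp2a2*, where it called 4.06% of all genes, and limma 0. All 3 of the latter were lower after TAC, where 6.52% of all genes had an unadjusted p under 0.05 and a lower value.

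For F3-KO against WT, edgeR called 0 of 9 after sham (0.106% of all genes), with 1 at an unadjusted p under 0.05 (6.02%), and 0 of 9 after TAC (0.078%), with 0 at an unadjusted p under 0.05 (10%). It called 0 of 9 in the mean of both operations (0.411%; 0 unadjusted, 10.1% of all genes) and 0 of 9 for the difference of the TAC effect between genotypes (0%; 0 unadjusted, 4.48% of all genes). DESeq2 called 0 of 10 members in all 4 of these contrasts, against 0.675%, 0.593%, 1.39% and 0.0312% of all genes, and limma 0 of 9. These 9 genes held 582 to 213042 counts per library. The p-values measure the spread between hearts, and the 95% intervals of the fold changes were 0.80 to 1.19 wide on the log2 scale for 3 hearts against 3.

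By direction alone, 7 of 9 members had a log2 fold change below 0 for TAC in WT (49.9% of all genes), 7 of 9 for TAC in F3-KO (47.1%) and 7 of 9 for the mean TAC effect (49.2%). Between genotypes 7 of 9 were below 0 after sham (50.8%), 8 of 9 after TAC (46.9%) and 7 of 9 in the mean of both operations (48.9%), and 6 of 9 were below 0 for the difference of the TAC effect (45.8%). The members' medians lay between -0.29, for TAC in WT, and -0.08, for that difference. These directions depend on the scaling: scaled to cardiomyocyte markers, the median turned to 0.36 for TAC in F3-KO, to 0.32 between genotypes after TAC and to 0.68 for the difference, where the median of all genes was at 0.58, 0.48 and 0.77.

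**Figure D1:**
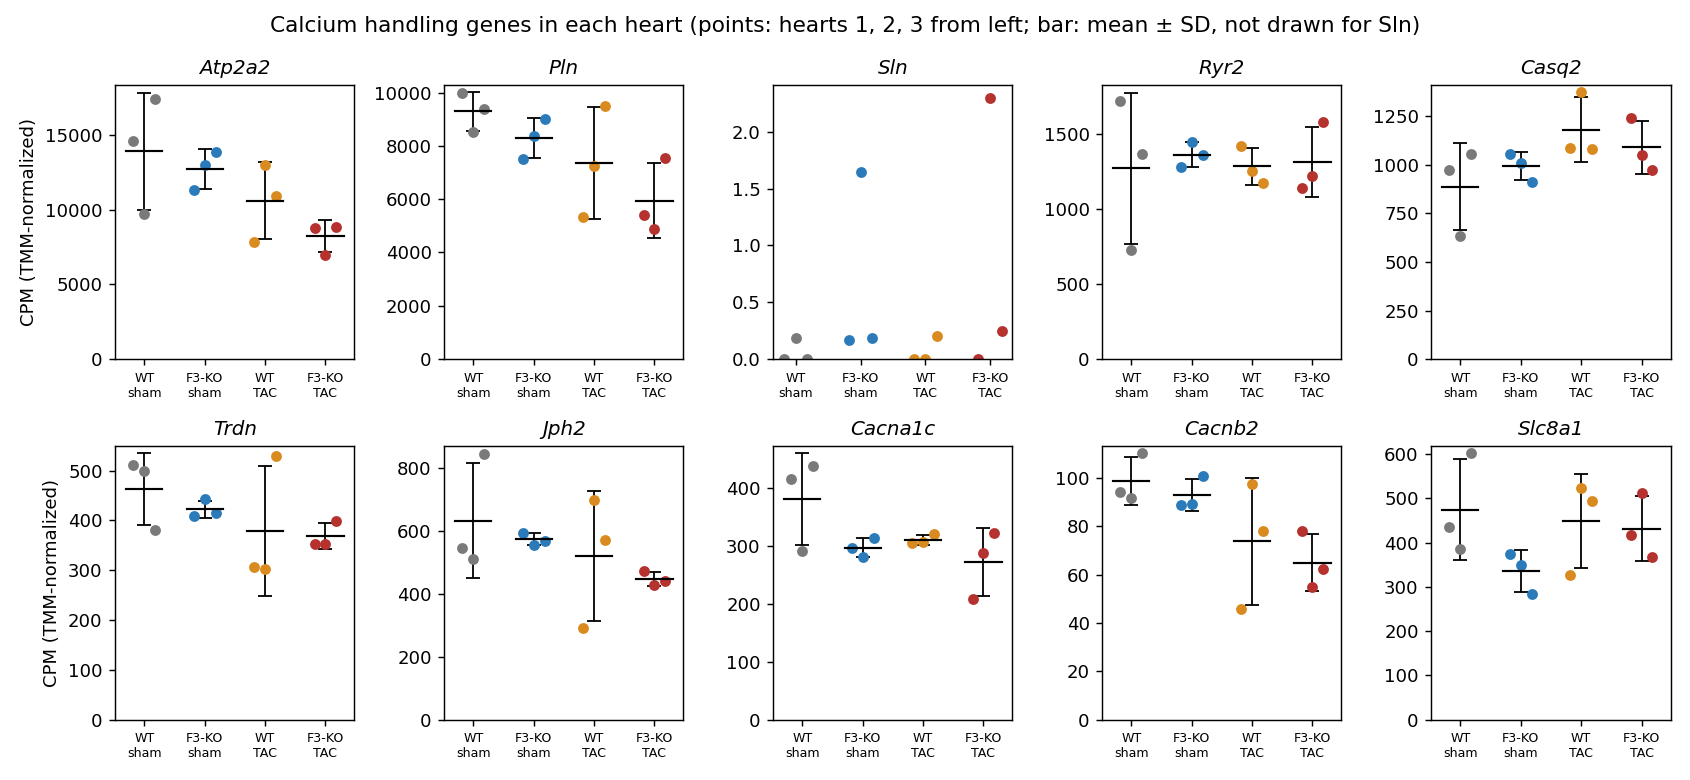
TMM-normalized CPM (vertical axes, linear, starting at 0) of the 10 genes in each of the 12 hearts, by group. Points are hearts 1, 2 and 3 from left to right and bars are the mean ± SD, not drawn for *Sln*. *Atp2a2* of the 3 F3-KO TAC hearts (6996 to 8869 CPM) lay below that of the 3 F3-KO sham hearts (11296 to 13880 CPM).

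The pump and its main ventricular inhibitor, *Atp2a2* and *Pln*, had their lowest group means in F3-KO TAC hearts. *Atp2a2* (NCBI gene 11938) encodes the SERCA2 calcium pump. It was 14627, 9717 and 17430.0 CPM in WT sham hearts 1 to 3, 11296, 13029 and 13880 CPM in F3-KO sham hearts, 7857, 12992 and 10947 CPM in WT TAC hearts, and 8814, 6996 and 8869 CPM in F3-KO TAC hearts. The 3 F3-KO TAC hearts lay below every sham heart of either genotype, while WT TAC and WT sham hearts overlapped. The log2 fold change for TAC was -0.63 in F3-KO hearts (standard error 0.25, 95% interval -1.17 to -0.09, edgeR adjusted p = 0.232) and -0.39 in WT hearts (standard error 0.25, interval -0.94 to 0.15, edgeR adjusted p = 0.829). In WT it was -0.20 without WT sham heart 3, -0.22 without WT TAC heart 1 and -0.60 without WT sham heart 2. Averaged over both genotypes it was -0.51 (standard error 0.18, interval -0.90 to -0.13), with an adjusted p of 0.175 by edgeR and 0.041 by DESeq2. The difference between the 2 TAC effects was -0.24, with an interval of -1.002 to 0.53, so these hearts did not resolve whether the genotypes differ.

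*Pln* (NCBI gene 18821) encodes phospholamban, which holds back SERCA2 until it is phosphorylated. Its expression was 9966, 8533 and 9375 CPM in WT sham hearts, 7509, 8364 and 9004 CPM in F3-KO sham hearts, 5334, 7228 and 9509 CPM in WT TAC hearts, and 5399.9, 4896 and 7534 CPM in F3-KO TAC hearts. Heart 3 was the highest of its TAC group in both genotypes, and in neither genotype were TAC and sham hearts apart. The log2 fold change for TAC was -0.34 in WT (interval -0.84 to 0.17) and -0.48 in F3-KO hearts (interval -0.99 to 0.03), and their mean was -0.41 (standard error 0.16, edgeR adjusted p = 0.221). The value in WT was -0.15 without WT TAC heart 1 and -0.57 without WT TAC heart 3. Between genotypes it was -0.16 after sham (interval -0.67 to 0.34) and -0.31 after TAC (interval -0.81 to 0.20), where it was -0.08 without WT TAC heart 3 and -0.52 without F3-KO TAC heart 3.

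*Sln* (NCBI gene 66402) encodes sarcolipin, a shorter peptide that inhibits the same pump and is chiefly atrial in the mouse. The coding sequences of both inhibitors are shown to make plain how little sequence they share, since that bears on whether reads of the abundant *Pln* could be counted as *Sln*. Both lie in 1 exon of a 2-exon gene on the plus strand, at chr10:53343864-53344022 for *Pln* and chr9:53853473-53853568 for *Sln* (GRCm38 build, GENCODE M21 transcripts), and encode 52 and 31 amino acids. Capitals mark the longest stretch of bases that both coding sequences hold, 8 bases long.
Pln: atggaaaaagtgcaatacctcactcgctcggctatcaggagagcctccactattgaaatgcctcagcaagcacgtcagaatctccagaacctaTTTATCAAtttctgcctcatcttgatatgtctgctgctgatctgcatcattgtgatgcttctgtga
Sln: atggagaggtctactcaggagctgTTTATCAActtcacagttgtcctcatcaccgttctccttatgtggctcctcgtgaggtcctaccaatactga
Over the whole transcripts the longest shared run was 13 bases. Deposited counts of both genes were whole numbers in all 12 hearts.

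*Sln* was counted 0, 2 and 0 times in WT sham hearts 1 to 3, 2, 19 and 2 times in F3-KO sham hearts, 0, 0 and 2 times in WT TAC hearts, and 0, 36 and 3 times in F3-KO TAC hearts. F3-KO sham heart 2 and F3-KO TAC heart 2 thus held nearly all *Sln* counts, which was known when the gene was chosen, and the other 10 hearts stayed at or below 3 counts. In the 5 hearts with 0 counts, a level of up to 0.237 to 0.288 CPM is allowed by counting error alone. The same 2 hearts had the highest counts of the atrial light chains *Myl7* (94 and 134, against 0 to 28 in the other 10) and *Myl4* (164 and 217, against 11 to 53), and of *Mybphl* (19 and 25, against 0 to 13). *Sbk2*, also on the atrial list, was not high there (12 and 9 counts, against 6 to 49). *Nppa*, an atrial hormone that stressed ventricles also make, was at 1674 counts in F3-KO sham heart 2 and 60206 in F3-KO TAC heart 2, against 405 to 14202 in the others. Summed over the 5 atrial markers counted, levels were 49.5 to 199 CPM in WT sham and 170.1 to 339 CPM in F3-KO sham hearts. After TAC they were 144 to 1147 CPM in WT and 168 to 4216 CPM in F3-KO hearts. *Nppa* made up most of each sum, such as 4189 of 4216 CPM in F3-KO TAC heart 2. F3-KO sham heart 2, high in *Sln*, had the lowest sum of its group. None of the 5 markers was at 0 in all hearts of a group. The part of atrial tissue in the *Sln* values was not tested.

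**Figure D2:**
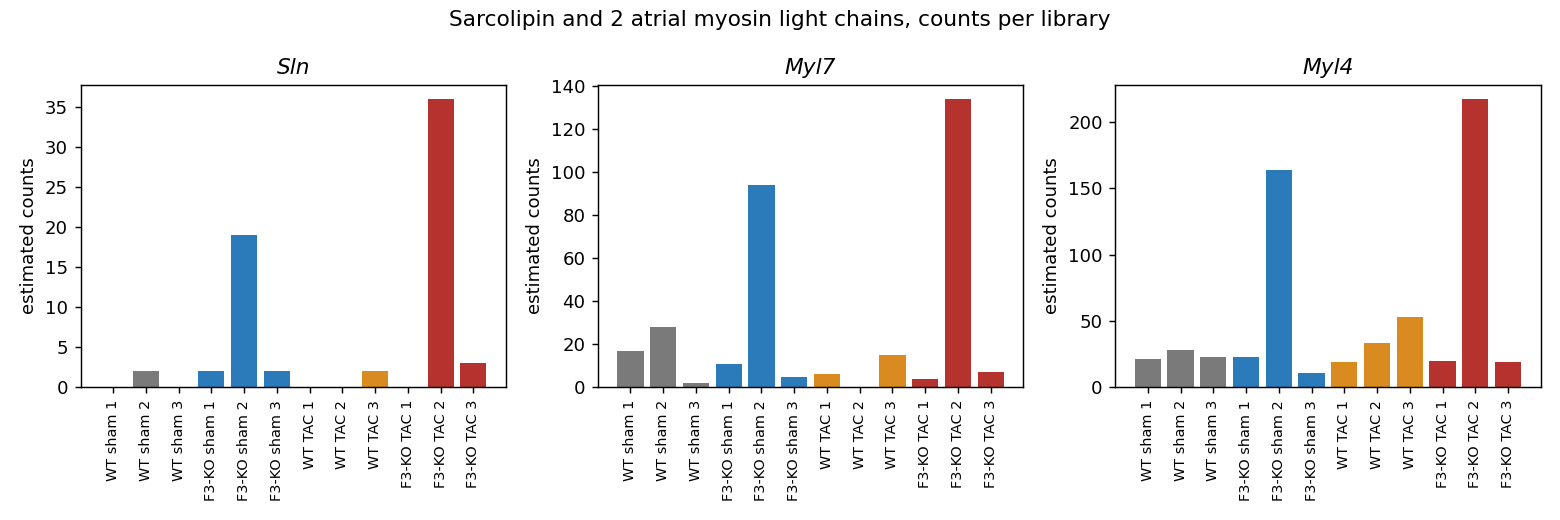
Estimated counts (vertical axes, linear, starting at 0) of *Sln* and of the atrial light chains *Myl7* and *Myl4* in each library, colored by group. F3-KO sham heart 2 and F3-KO TAC heart 2 hold the 2 highest bars in each panel, 19 and 36 counts for *Sln*.

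Without those 2 libraries, edgeR called 0 of 9 members: none passed the adjusted threshold in any contrast. In this reduced set *Ryr2* alone changed the sign of its fold change, with values of 0.03, 0.02 and 0.03 for TAC in F3-KO hearts, for the mean TAC effect and for the difference between genotypes.

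Among the genes of calcium release, the receptor itself had the fold changes for TAC nearest to 0 of the 9 genes. *Ryr2* (NCBI gene 20191) encodes the cardiac ryanodine receptor, the release channel. Its expression was 1718, 724 and 1364 CPM in WT sham hearts, 1276, 1446 and 1359 CPM in F3-KO sham hearts, 1421, 1250.4 and 1175 CPM in WT TAC hearts, and 1142, 1218 and 1577 CPM in F3-KO TAC hearts. WT sham heart 2 was the lowest of all 12, and the groups overlapped in each comparison. Log2 fold changes for TAC were 0.01 in WT (interval -0.55 to 0.58) and -0.05 in F3-KO hearts (interval -0.62 to 0.51), and without WT sham heart 2 the value in WT was -0.27. *Ryr2* has 18230 bases of exon. In WT sham heart 2 the median of 748 genes of at least 8000 bases was 0.15 below that of 1883 genes under 2000 bases on the log2 scale, against differences of -0.18 to 0.18 in the other 11 hearts, while *Ryr2* was 0.82 below its own mean. WT TAC hearts 2 and 3 had long genes further below short ones (-0.18 each), with *Ryr2* at -0.03 and -0.12. The part of transcript length in the *Ryr2* values was not tested.

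*Casq2* (NCBI gene 12373) encodes cardiac calsequestrin, the calcium buffer of the store. It was 975, 636 and 1055 CPM in WT sham hearts and 1089, 1375 and 1082 CPM in WT TAC hearts, so that every WT TAC heart lay above every WT sham heart. It was the 1 member of 9 whose groups did not overlap for TAC in WT, where the groups of 9.11% of all genes did not overlap and 4.68% were higher after TAC. The log2 fold change was 0.41 (standard error 0.20, interval -0.02 to 0.84, edgeR adjusted p = 0.783), and it was 0.22 without WT sham heart 2. In F3-KO hearts it was 1055, 1008 and 914 CPM after sham and 1242, 1054 and 976 CPM after TAC, with overlap and a log2 fold change of 0.14 (interval -0.29 to 0.57). *Casq2* and *Slc8a1* were the only members of 9 with a value above 0 for the mean TAC effect (0.27 and 0.14).

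*Trdn* and *Jph2* build the junction between store and sarcolemma. *Trdn* (NCBI gene 76757) encodes triadin, which anchors calsequestrin to the release channel. It was 511, 499.7 and 381 CPM in WT sham hearts, 409, 442 and 415 CPM in F3-KO sham hearts, 306, 303 and 529 CPM in WT TAC hearts, and 353, 353 and 399 CPM in F3-KO TAC hearts. In F3-KO hearts the 3 TAC values lay just below the 3 sham values, with a log2 fold change of -0.20 (interval -0.65 to 0.26), and in WT hearts the groups overlapped.

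*Jph2* (NCBI gene 59091) encodes junctophilin-2, which spans the gap to the T-tubule. It was 545, 510.1 and 843 CPM in WT sham hearts, 593, 556 and 569 CPM in F3-KO sham hearts, 293, 699 and 570.3 CPM in WT TAC hearts, and 472, 427 and 441 CPM in F3-KO TAC hearts. The F3-KO TAC hearts again lay below all F3-KO sham hearts (log2 fold change -0.36, interval -0.96 to 0.24), whereas WT TAC heart 1 was the lowest and WT TAC heart 2 the second highest of all 12. Without WT TAC heart 1 the value for TAC in WT moved from -0.28 to 0.0040.

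For TAC in F3-KO hearts, 4 of 9 members had groups that did not overlap, *Atp2a2*, *Cacnb2*, *Trdn* and *Jph2*, against 22.9% of all genes, and all 4 were lower after TAC, against 11.4% of all genes. The same count was 1 of 9 after sham between genotypes (13.7% of all genes), *Slc8a1*, which was lower in F3-KO hearts (6.93% of all genes), and 0 of 9 after TAC between genotypes (11.4% of all genes). In these F3-KO hearts the fibroblast marker sum was higher and the cardiomyocyte marker sum lower after TAC, and the part of this shift in the members' values was not tested. When libraries were scaled to the cardiomyocyte markers instead, the median of all genes moved by 0.56 on the log2 scale for TAC in F3-KO hearts. As scaled, *Atp2a2* was at -0.09, *Cacnb2* at 0.02, *Pln* at 0.07, *Jph2* at 0.20 and *Trdn* at 0.36. Relative to the median of all genes they were at -0.67, -0.56, -0.51, -0.38 and -0.22. Taking off that median largely undoes this scaling, so the latter values are no separate support for a decrease.

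**Figure D3:**
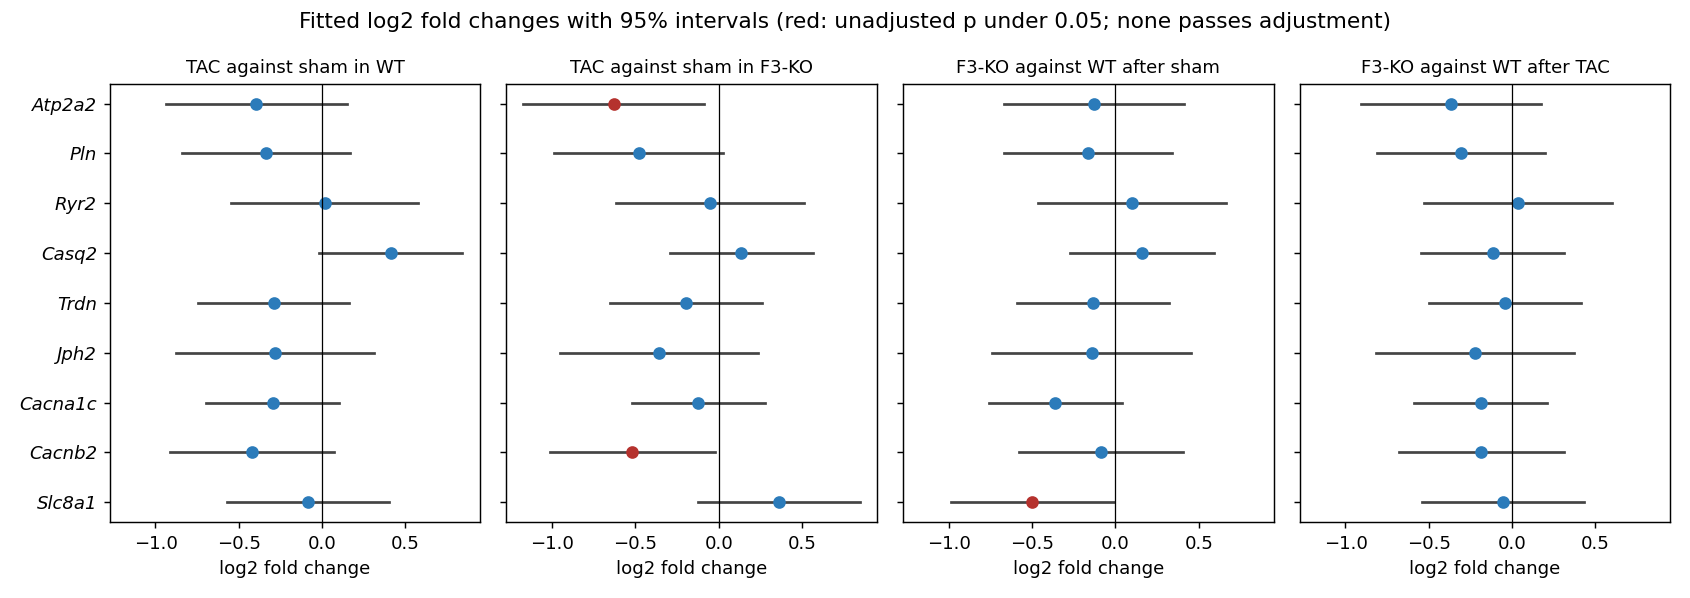
Log2 fold changes (horizontal axes) of the 9 tested genes with 95% intervals, in the 4 comparisons between groups. Red points have an unadjusted p under 0.05 (*Atp2a2* at -0.63 and *Cacnb2* at -0.52 for TAC in F3-KO, *Slc8a1* at -0.50 for F3-KO after sham), and no gene passed adjustment. For TAC in F3-KO, scaling to cardiomyocyte markers turned *Cacnb2* to 0.02 and left *Atp2a2* at -0.09.

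At the sarcolemma, the pore of the L-type channel and its beta subunit had values below 0 in all 4 comparisons between groups, and edgeR called neither, while scaling to cardiomyocyte markers turned both above 0 for TAC in F3-KO and between genotypes after TAC. *Cacna1c* (NCBI gene 12288) encodes the pore-forming subunit. It was 415, 291 and 437 CPM in WT sham hearts, 296, 280.2 and 314 CPM in F3-KO sham hearts, 305, 306 and 319 CPM in WT TAC hearts, and 208, 287 and 322 CPM in F3-KO TAC hearts. WT sham hearts 1 and 3 were above every other heart, and the groups overlapped in each comparison. The log2 fold change between genotypes was -0.36 after sham (interval -0.76 to 0.04) and -0.19 after TAC (interval -0.59 to 0.21), where it was -0.03 without F3-KO TAC heart 1 and -0.33 without F3-KO TAC heart 3. For TAC it was -0.30 in WT (interval -0.70 to 0.10) and -0.12 in F3-KO hearts (interval -0.52 to 0.28).

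*Cacnb2* (NCBI gene 12296) encodes the beta subunit that brings the pore to the membrane. It was 94.2, 91.5 and 110.0 CPM in WT sham hearts, 88.8, 89.2 and 101 CPM in F3-KO sham hearts, 45.7, 97.5 and 78.0 CPM in WT TAC hearts, and 77.8, 54.7 and 62.2 CPM in F3-KO TAC hearts. In F3-KO hearts TAC and sham did not overlap, with a log2 fold change of -0.52 (standard error 0.23, interval -1.01 to -0.02, edgeR adjusted p = 0.271). In WT hearts it was -0.42 (interval -0.91 to 0.07), with overlap, and it was -0.17 without WT TAC heart 1 and -0.67 without WT TAC heart 2. Averaged over genotypes it was -0.47 (standard error 0.16, edgeR adjusted p = 0.175), and the 2 TAC effects differed by -0.10 (interval -0.80 to 0.60). Between genotypes it was -0.09 after sham (interval -0.58 to 0.41) and -0.18 after TAC (interval -0.68 to 0.31).

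*Slc8a1* (NCBI gene 20541) encodes NCX1, the exchanger that removes calcium from the cell. It was 436, 385 and 603 CPM in WT sham hearts, 375, 349.7 and 283 CPM in F3-KO sham hearts, 327, 523 and 494 CPM in WT TAC hearts, and 417, 511 and 367 CPM in F3-KO TAC hearts. The F3-KO sham hearts were all below the WT sham hearts, and the log2 fold change was -0.50 (standard error 0.22, interval -0.99 to -0.01, edgeR adjusted p = 0.821). Without WT sham heart 3 it was -0.29. After TAC the genotypes overlapped at -0.05 (interval -0.54 to 0.43). The TAC effect was -0.08 in WT and 0.36 in F3-KO hearts (0.21 without F3-KO TAC heart 2), and their difference of 0.45 had an interval of -0.24 to 1.13.

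**Figure D4:**
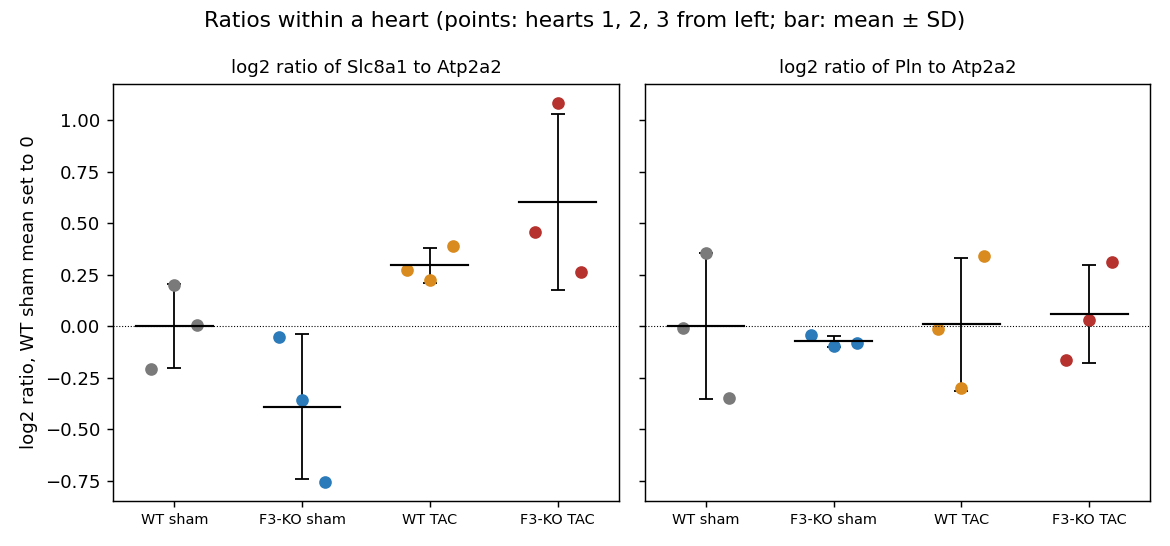
Log2 ratio of *Slc8a1* to *Atp2a2* (left) and of *Pln* to *Atp2a2* (right) within each heart, with the WT sham mean set to 0 on the vertical axis. Points are hearts 1, 2 and 3 from left to right and bars are the mean ± SD. In the left panel the 6 TAC hearts (0.23 to 1.09) lie above the 6 sham hearts (-0.76 to 0.20). The ratios are not corrected for the mix of cells in a heart.

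Ratios of members within a heart do not depend on how libraries are scaled. They are not corrected for the mix of cells in a heart, and the part of that mix in the ratios was not tested. The log2 ratio of *Slc8a1*, the exchanger, to *Atp2a2*, the pump, was set to 0 for the mean of WT sham hearts. It was then -0.21, 0.20 and 0.01 in WT sham hearts, -0.05, -0.36 and -0.76 in F3-KO sham hearts, 0.27, 0.23 and 0.39 in WT TAC hearts, and 0.46, 1.09 and 0.26 in F3-KO TAC hearts. All 6 TAC hearts lay above all 6 sham hearts. The mean difference was 0.64, and a two-sided exact permutation test within genotypes gave p = 0.005, the smallest it can give, and an adjusted p of 0.05 over 10 tests of 2 ratios, which is not below 0.05. Within WT the difference was 0.30 and within F3-KO hearts 0.99, each with the smallest exact permutation p that 3 hearts against 3 allow, 0.1 (adjusted p = 0.333). Without F3-KO TAC heart 2 the mean difference was 0.52 (exact permutation p = 0.015).

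The log2 ratio of *Pln* to *Atp2a2*, inhibitor to pump, did not separate the groups. It was -0.01, 0.36 and -0.35 in WT sham hearts, -0.04, -0.09 and -0.08 in F3-KO sham hearts, -0.01, -0.30 and 0.34 in WT TAC hearts, and -0.16, 0.03 and 0.31 in F3-KO TAC hearts. The mean TAC difference was 0.07 (two-sided exact permutation p = 0.625, adjusted p = 0.875). F3-KO sham hearts were close together, with an SD of 0.026, and the other groups had SDs of 0.24 to 0.35.

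Read heart by heart against the WT sham mean, the members did not move as one block. The median deviation over the 9 genes was -0.59 on the log2 scale in WT TAC heart 1, and -0.01 and -0.02 in WT TAC hearts 2 and 3. In F3-KO TAC hearts it was -0.38, -0.39 and -0.30. WT TAC heart 1 held the lowest *Jph2* and *Cacnb2* of all 12 hearts and also the highest fibroblast marker sum of the 6 WT hearts (3264 CPM). F3-KO TAC heart 2 held the lowest *Atp2a2* and *Pln*, with the highest fibroblast sum of all 12 (7510 CPM). The fibroblast sum is of transcripts, collagen genes among them, and does not separate more fibroblasts from more transcript per fibroblast. The part of fibroblast content in these values was not tested.

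**Figure D5:**
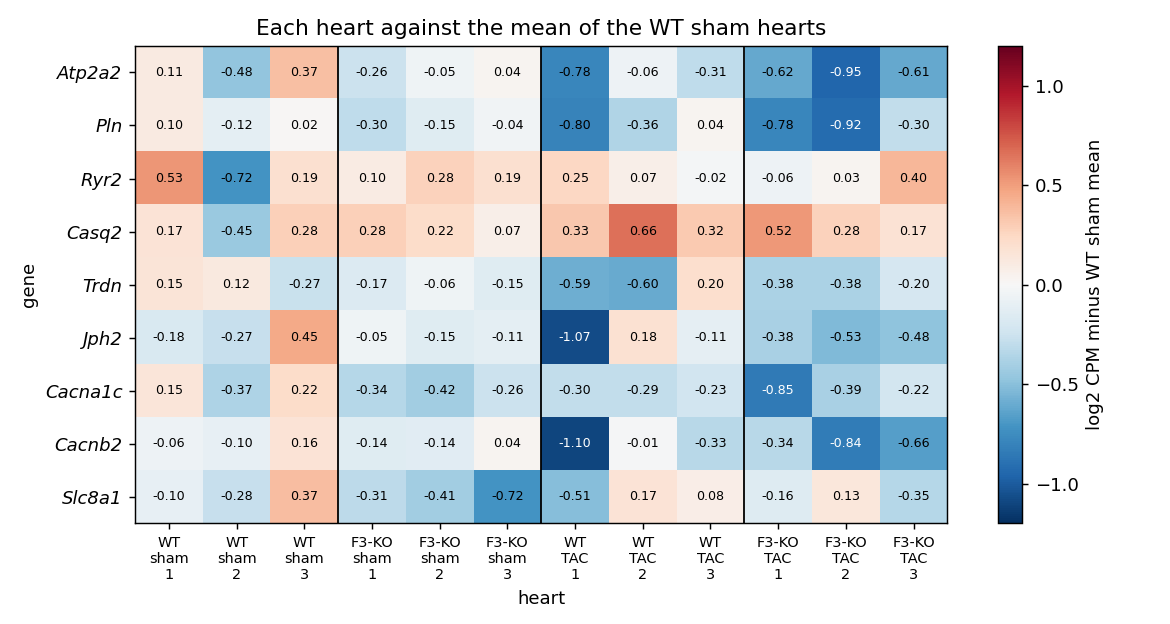
Log2 CPM of the 9 tested genes (rows) in each of the 12 hearts (columns) minus the mean of the WT sham hearts, printed in each cell. Blue cells are below and red cells above that mean. The lowest cells are *Cacnb2* (-1.10) and *Jph2* (-1.07) in WT TAC heart 1, and *Casq2* is above 0 in every heart but WT sham heart 2 (-0.45).

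Over the 12 hearts, with group differences kept, *Atp2a2*, *Pln*, *Cacnb2* and *Jph2* went together. Pearson's r of log2 CPM was 0.90 between *Cacnb2* and *Jph2*, 0.87 between *Atp2a2* and *Cacnb2*, 0.83 between *Atp2a2* and *Jph2* and 0.81 between *Atp2a2* and *Pln*. *Pln* was less close to *Cacnb2* (r = 0.75) and *Jph2* (r = 0.65), and was at r = 0.73 with *Trdn*. *Casq2* went the other way from *Trdn* (r = -0.62) and from *Pln* (r = -0.37), and was unrelated to *Atp2a2* (r = 0.02). These are descriptions over 12 hearts that share groups and libraries. Of all tested genes, those most like *Atp2a2* were *Qsox2* (r = 0.97), *Paqr9* (r = 0.96) and *D2hgdh* (r = 0.95), and those most like *Pln* were *Psmd2*, *Osbpl1a* and *Ldhd* (r = 0.95 each). The genes most like *Ryr2* were *Adra1a*, *Ppp2r3a* and *1190005I06Rik* (r = 0.92, 0.92 and 0.91). Those most like *Sln* were *Myl7* (r = 0.84), *Myl4* (r = 0.83) and *Ogn* (r = 0.81), over counts that were at or below 3 in 10 of the 12 hearts.

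Members with close relatives could gain or lose reads if the authors' counting shared them. The longest runs of identical bases between transcripts were 44 for *Atp2a2* with *Atp2a1* and with *Atp2a3*, 45 for *Slc8a1* with *Slc8a3*, 43 for *Cacna1c* with *Cacna1d* and 35 for *Ryr2* with *Ryr1* and for *Jph2* with *Jph1*. Those relatives were at most 25.3 CPM in any heart except *Jph1* (20.3 to 38.4 CPM). *Asph*, which shares 23 bases with *Trdn*, was 209.7 to 315 CPM.

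Beyond the 10 genes, 74 other genes of calcium handling were listed in 4 groups, of which 67 were tested. *Strit1* was not analysed here. For the mean TAC effect, edgeR called 0 of 67 (0.078% of all genes), limma 0 and DESeq2 2, *Pde4d* and *Rcan1* (4.06% of all genes). At an unadjusted p under 0.05 there were 12 of 67 (17.8% of all genes), a total near the share of all genes. By direction 10 of the 67 were lower and 2 higher, where 6.52% of all genes were lower at that threshold. Their median log2 fold change was 0.01, against -0.24 for the 9 members and 0.0045 for all genes tested. In WT alone the medians were 0.02 for the 67, -0.29 for the members and 0 for all genes, and in F3-KO hearts -0.04, -0.20 and 0.02. For F3-KO against WT in the mean of both operations edgeR called 0 of 67 (0.411% of all genes), limma 0 and DESeq2 3, *Camk2b*, *Cacna1g* and *Rrad* (1.39% of all genes). At an unadjusted p under 0.05 there were 8 of 67 (10.1% of all genes), a total again near the share of all genes. By direction 7 of the 67 were lower and 1 higher, and the share of all genes by direction is not given here. The medians were -0.02 for the 67, -0.18 for the members and 0.0049 for all genes tested.

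Of the 11 tested regulators of pump and store, edgeR and DESeq2 called 0 in each of the 7 contrasts, and 0 or 1 had an unadjusted p under 0.05, where 4.48% to 17.8% of all genes did, so a list of this size does not stand apart by its count. *Casq1*, the skeletal muscle calsequestrin, was 13.5, 5.59 and 22.7 CPM in WT sham, 7.57, 12.8 and 5.13 CPM in F3-KO sham, 14.1, 47.7 and 22.8 CPM in WT TAC, and 11.3, 10.1 and 3.05 CPM in F3-KO TAC hearts. Its log2 fold change between genotypes, as the mean of both operations, was -1.25 (standard error 0.42, edgeR adjusted p = 0.316). The 13 tested genes of the release complex had median log2 fold changes of 0.05 and 0.02 for TAC in WT and F3-KO hearts, with 0 at an unadjusted p under 0.05 in either (6.28% and 17.1% of all genes) and 0 called by edgeR, DESeq2 or limma in both.

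Among the 25 tested channels and exchangers, *Rrad*, whose small GTPase product inhibits L-type channels, was lower in F3-KO than in WT sham hearts. It was 192, 189 and 269 CPM in WT sham hearts, 81.9, 75.1 and 48.1 CPM in F3-KO sham hearts, 59.9, 76.8 and 103 CPM in WT TAC hearts, and 72.2, 124 and 84.2 CPM in F3-KO TAC hearts. The 3 WT sham hearts stood above the other 9. The log2 fold change between genotypes after sham was -1.67 (standard error 0.27, edgeR adjusted p = 0.0493). Of 15 alternative fits 7 called it, among them DESeq2 (adjusted p = 1.8e-06) and limma (adjusted p = 0.034). The replicate block and all fits with hearts left out did not call it. When any 1 of the 6 sham hearts was left out, edgeR adjusted p was 0.0973 to 0.302. Log2 fold changes were then -1.81 to -1.47. For TAC in WT it was -1.44 (edgeR adjusted p = 0.285, DESeq2 adjusted p = 0.00036).

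Also in this list, the T-type channel pore *Cacna1g* was 23.6 to 49.0 CPM in WT sham, 20.7 to 44.1 CPM in WT TAC, 15.4 to 21.4 CPM in F3-KO sham and 11.5 to 21.4 CPM in F3-KO TAC hearts. Its log2 fold change between genotypes, as the mean of both operations, was -0.92 (standard error 0.23, edgeR adjusted p = 0.182). *Cacna1h*, another T-type pore, was at -0.65 and *Cacnb4*, another beta subunit, at -0.61 for the mean TAC effect (edgeR adjusted p = 0.165 and 0.169).

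Among the 18 tested signaling genes, *Camk2b*, the beta form of the calmodulin-dependent kinase, was 11.5 to 21.4 CPM in WT sham and 17.1 to 21.1 CPM in WT TAC hearts, against 9.07 to 12.4 CPM in F3-KO sham and 7.34 to 11.1 CPM in F3-KO TAC hearts. Its genotype effect averaged -0.84 (standard error 0.16, edgeR adjusted p = 0.0561). *Rcan1*, an inhibitor and target of calcineurin, was 60.4 to 86.6 CPM in WT sham, 83.4 to 99.96 CPM in F3-KO sham, 82.4 to 105 CPM in WT TAC, and 157, 249 and 110.3 CPM in F3-KO TAC hearts. For TAC in F3-KO hearts it was at 0.94 (standard error 0.25, edgeR adjusted p = 0.175). Both phosphodiesterases on the list were lower after TAC by value, *Pde4d* at -0.54 and *Pde3a* at -0.38 for the mean TAC effect (edgeR adjusted p = 0.104 and 0.158).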

How the data were processed

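RNA from 12 hearts was sequenced. The authors deposited estimated counts per gene, not normalized, of which 40.6% were not whole. Their notes list HISAT2 2.0.4, STAR 2.3.0 and DESeq2, and the builds mm8 and mm9 without a role. The counting tool is not given in the sources used here. The joint table matched the separate tables of 11 hearts, and for WT sham heart 2 only the joint table was used. Tests had been planned for whole counts, so counts were rounded.

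Genes were filtered with filterByExpr (minimum count 10), which removed 5213 genes with 0.0773% of counts, scaled by TMM (0.931 to 1.09) and tested in R 4.3.3 with edgeR 4.0.16, 1 model of 4 groups, with p-values adjusted by Benjamini-Hochberg over all genes tested and a threshold of 0.05. The 95% intervals are t-based from the fit. CPM of single genes is TMM-normalized, and marker sums are scaled to library totals. Log2 CPM used a prior count of 2. Ratios were tested by exact permutation. DESeq2 1.42.0, limma 3.58.1 and the other alternatives are given in the closing section. Scripts were tested on simulated data. Exon lengths and sequences are from GENCODE M21.

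The 10 genes, 4 pathway lists and 10 marker lists were chosen with earlier results of these data known. Of the pathway lists, genes called in any contrast and the 5 with the lowest p for the mean TAC and for the mean genotype effect were to be named, and others were named after their values were seen. *Bmp10* was not analysed here. Floors from counts cover counting error only, whereas the t-based intervals of the fold changes also include the spread between hearts.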

Additional observations from a re-analysis of the deposited data

Results flagged for a closer look

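*Rrad* stood out because its values after TAC lay on opposite sides of sham in the 2 genotypes: every WT TAC heart lay below the WT sham mean and every F3-KO TAC heart above the F3-KO sham mean. The difference of the TAC effects was 1.89 on the log2 scale (standard error 0.38, edgeR adjusted p = 0.954), and DESeq2 gave 1.88 with an adjusted p of 0.00545. F3-KO sham and F3-KO TAC hearts overlapped.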

How the results depend on the processing

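Of 1080 refitted values for the 9 genes, 1003 kept their direction and side of the threshold, 74 changed sign and 3 became calls. As first fitted, no member was called in any contrast, so no change of sign could undo a call. The 3 were *Atp2a2* for the mean TAC effect with DESeq2 (-0.52) and, scaled to cardiomyocyte markers, *Casq2* (0.69, adjusted p = 0.0388) and *Slc8a1* (0.93, adjusted p = 0.0382) for TAC in F3-KO. These 2 calls rest on a scaling that moved the median of all genes by 0.56 there, by 0.46 for F3-KO against WT after TAC, by 0.74 for the difference between genotypes, by 0.19 for the mean TAC effect, by -0.19 for TAC in WT and by -0.28 after sham.

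With that scaling, values that changed sign were *Jph2* 0.20, *Trdn* 0.36, *Pln* 0.073, *Cacnb2* 0.023, *Ryr2* 0.51 and *Cacna1c* 0.45 for TAC in F3-KO (median 0.36, 2 members and 14 listed genes called), *Ryr2* -0.082 for TAC in WT, *Ryr2* 0.21 and *Cacna1c* 0.0065 for the mean TAC effect, and *Casq2* -0.075 and *Ryr2* -0.10 after sham. After TAC between genotypes they were *Jph2* 0.30, *Trdn* 0.41, *Pln* 0.16, *Cacnb2* 0.32, *Casq2* 0.36, *Atp2a2* 0.125, *Slc8a1* 0.45 and *Cacna1c* 0.28 (median 0.32), and for the difference between genotypes *Jph2* 0.69, *Pln* 0.60, *Cacnb2* 0.68, *Casq2* 0.43, *Ryr2* 0.59 and *Atp2a2* 0.48 (median 0.68). The share of all genes called with that scaling is not given here, so the 2 members and 14 listed genes called have no background beside them. With limma, *Ryr2* was 0.017 for the mean TAC effect and *Trdn* 0.0078 after TAC between genotypes. Without both atrial-marker libraries *Ryr2* was 0.033 for TAC in F3-KO, 0.020 for the mean TAC effect and 0.026 for the difference. The cause was not tested.

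Leaving out 1 heart at a time gave, for TAC in WT, *Jph2* -0.55 to 0.0040, *Ryr2* -0.27 to 0.29 and *Slc8a1* -0.22 to 0.13, for TAC in F3-KO *Cacna1c* -0.26 to 0.030 and *Ryr2* -0.21 to 0.030, and for the mean TAC effect *Ryr2* -0.16 to 0.12. After sham it gave *Atp2a2* -0.33 to 0.066, *Cacnb2* -0.15 to 0.0015, *Casq2* -0.033 to 0.30, *Jph2* -0.28 to 0.12 and *Ryr2* -0.18 to 0.38, and after TAC *Cacnb2* -0.44 to 0.070, *Casq2* -0.23 to 0.0060, *Jph2* -0.51 to 0.048, *Ryr2* -0.12 to 0.12, *Slc8a1* -0.24 to 0.073 and *Trdn* -0.18 to 0.28. For the mean genotype effect the ranges were *Casq2* -0.075 to 0.093, *Ryr2* -0.074 to 0.21 and *Trdn* -0.16 to 0.070, and for the difference *Cacnb2* -0.35 to 0.15, *Jph2* -0.36 to 0.19, *Pln* -0.35 to 0.083, *Ryr2* -0.35 to 0.21 and *Trdn* -0.047 to 0.41. The log2 ratio of *Pln* to *Atp2a2* gave -0.17 to 0.19 for TAC in WT, -0.017 to 0.16 for the mean TAC effect, -0.25 to 0.11 after sham and -0.10 to 0.22 after TAC.

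Counts moved as follows. At an unadjusted p, 2, 3 and 1 members passed for TAC in F3-KO, the mean TAC effect and after sham. Of the 67 listed genes 5, 11, 12, 6, 7, 8 and 2 passed over the 7 contrasts in the order given in the text. In that order 6.28%, 17.1%, 17.8%, 6.02%, 10%, 10.1% and 4.48% of all genes passed. DESeq2 called 1 member for the mean TAC effect, and 1, 2, 2, 1, 3 and 1 listed genes for TAC in WT, in F3-KO, the mean TAC effect, after TAC, the mean genotype effect and the difference. Without a low-count filter 1 listed gene, *Camk2b*, passed for the mean genotype effect. Leaving out 1 heart gave 0 to 4 listed genes for TAC in F3-KO, 0 to 3 for the mean TAC effect, 0 to 1 after TAC, 0 to 1 for the mean genotype effect and 0 after sham. The larger counts came without F3-KO TAC heart 3 (*Rcan1* in each, with *Cacna1s*, *Cacnb3* and *Calm2* for TAC in F3-KO, and with *Cacna1s* and *Pde4d* for the mean), WT TAC heart 2 (*Pde4d*) or WT sham heart 2 (*Camk2b*). After sham 0 were called without both atrial-marker libraries. Shares of all genes called are not given here for limma, for the fit without a low-count filter or for fits with hearts left out. Replicate numbers were not taken as pairs. Of 18 same-numbered pairs 4 correlated above 0.1 (r = -0.141 to 0.362), and the median r of differently numbered pairs was -0.0311. These values do not settle whether same-numbered hearts belong together. With the replicate number as a block, 0 listed genes were called after sham, where *Rrad* was at -1.65 (adjusted p = 0.081), and no other count of calls among members or listed genes moved.

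The fit to only the libraries compared was not run for the averages and the difference. Groups of 3 hearts limit the precision. Standard errors of the members' log2 fold changes were 0.18 to 0.27 between groups.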
